A study of Homo sapiens with 6 samples.

Results

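The guidance cues described here are the semaphorins, ephrins, Slits, netrins and repulsive guidance molecules, together with their receptors, as read in OVCA433, an established line of human ovarian carcinoma cells. The set held 52 genes named by family membership, 29 ligands and 23 receptors, out of 19775 genes that could be named on the array. A gene was read through its brightest probe set that carried 1 gene symbol. This gave 51 measured genes, and EPHB2 was not analysed here. Cells were grown in RPMI1640 with 10% fetal bovine serum in 60 mm dishes, and 24 hours after seeding the medium was exchanged. The 3 control dishes received fresh medium without versican, and the 3 treated dishes received fresh medium with exogenous versican, a matrix proteoglycan that carries chondroitin sulfate chains. RNA was taken at 48 hours post treatment, 100 ng of it was labelled for each array, and expression was read on Affymetrix Human Genome U133 Plus 2.0 arrays. The harvest step in the labels speaks of transfected cells, while the sample labels speak of added versican, and the groups were taken as the sample labels name them. No source used here gave the dose or preparation of versican. All arrays come from 1 cell line, and nothing in the labels says that the 3 samples of a group came from separate days, so the spread behind each p-value may be technical only.

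Guidance cues were first known from growing axons, and epithelial and tumour cells use them to regulate cell shape, contact and movement. Secreted class 3 semaphorins bind neuropilins, which lack a signalling domain of their own and signal with plexins, while most membrane-bound semaphorins bind plexins directly. Ephrins are membrane-bound ligands of the Eph receptor tyrosine kinases, and both partners can signal into their own cell. Slits bind Robo receptors, netrins bind DCC, neogenin and UNC5 receptors, and repulsive guidance molecules bind neogenin and act as co-receptors of bone morphogenetic proteins.

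Values are MAS5 signals on a linear scale, and fold changes are versican over control on the scale of log2(signal + 16), which understates the change of dim genes. The 9887 genes in the upper 50% by mean level were tested with limma, and a gene is said to have risen or fallen where its Benjamini-Hochberg adjusted p over all of these was under 0.05. Genes below that filter, at a mean log2 level of 7.76, are called near background and were not tested in this fit. A second fit, called the probe-set fit, took the upper 50% of single probe sets, each as its own unit. Median signal over all probe sets was 62.8 to 75.8 per array, arrays of one group correlated at 0.993 to 0.995 over the tested genes, and arrays of different groups at 0.969 to 0.972. Of 13 markers of ovarian carcinoma epithelium 12 were above the filter, WT1 being the exception, and their summed signal was 120403 to 138568 in control and 123639 to 125784 in versican arrays. Keratins and EPCAM carried most of this sum, and 5 of the 12 were called: PAX8 rose by 0.90 on the log2 scale, and MUC1, CLDN3, MSLN and KRT19 fell by 1.36, 0.34, 0.30 and 0.21. Of 9 fibroblast markers only COL1A1 was above the filter, and it fell, so that the summed signal went from 5210 to 5303 in control to 2714 to 3225 in versican arrays. All 6 endothelial markers and 3 of the 4 leukocyte markers were near background, and the leukocyte sum of 844 to 880 in control and 1038 to 1089 in versican arrays came mostly from LAPTM5. Among 7 markers of neurons and glia, TUBB3 and MAP2 rose by 0.37 and 0.36 on the log2 scale, while the myelin protein MBP did not pass (-0.07, adjusted p = 0.31). The neuronal nuclear protein RBFOX3 and the glial protein GFAP were near background, with every versican array below every control array (log2 -1.22 and -0.63). The summed signal of these 7 was 11435 to 11876 in control and 13934 to 14096 in versican arrays, and the part of any of these markers in the results below was not tested.

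Of the 33 guidance genes that were tested, 5 rose and 6 fell with versican, and 22 did not pass. The 5 that rose were NRP1, SLIT2, EFNB2, SEMA3A and EFNA5. Those that fell were NTN4, EFNA1, SEMA3E, PLXNB2, SEMA4C and NTN1. The called share of 33.3% stood beside a background of 41.6% of all tested genes (21.0% rose and 20.6% fell). The median log2 fold change of the 33 was -0.03, against 0.01 over all tested genes, and the median size regardless of direction was 0.17, against 0.18. Groups did not overlap for 15 of the 33, beside 52.2% of all tested genes. The 11 called genes had a median size of 0.68 on the log2 scale, where all called genes had 0.37. By role, 9 of 18 tested ligands were called (4 rose, 5 fell) and 2 of 15 tested receptors (1 rose, 1 fell). A difference between ligands and receptors was not tested.

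**Figure D1:**
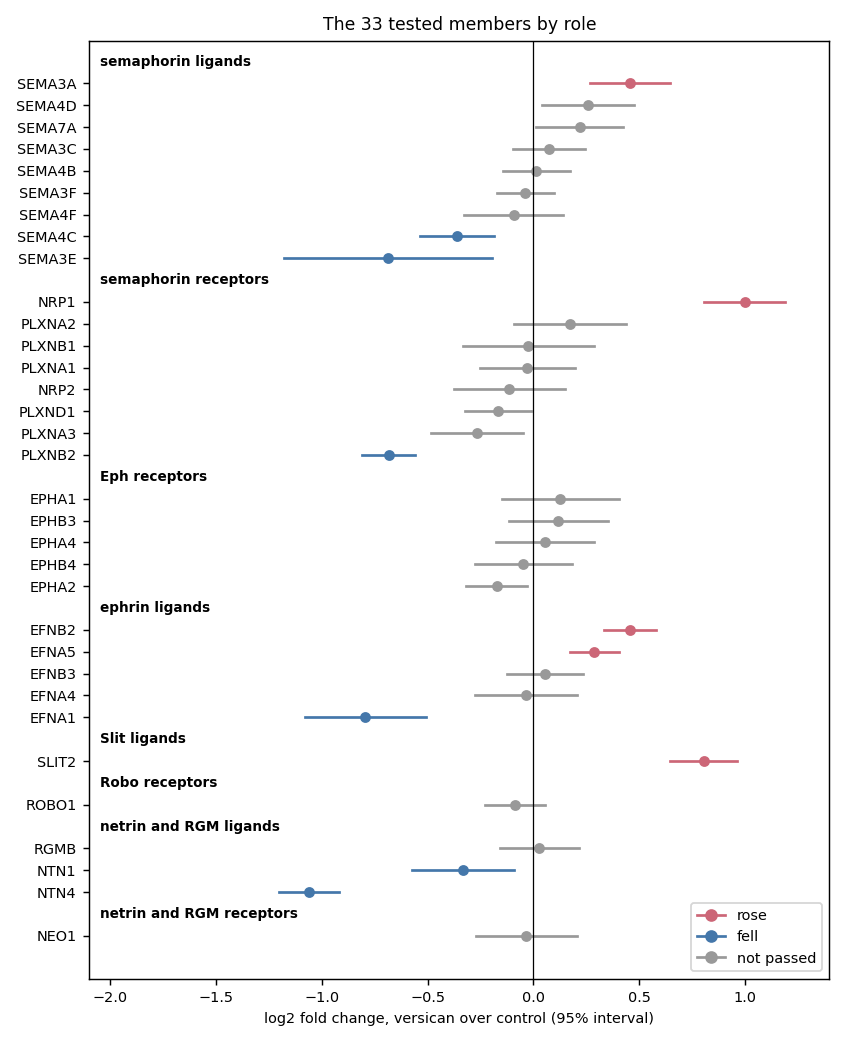
Log2 fold change (versican over control) of the 33 tested guidance genes on the x axis, grouped by role, with points for the estimate and lines for the 95% interval of the limma fit. The 5 red genes rose, led by NRP1 at 0.999, the 6 blue genes fell, led by NTN4 at -1.06, and all 5 Eph receptors are grey with intervals close to or across 0.

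Promoter sequence is shown for 4 ligands whose transcripts moved, SLIT2 and EFNB2, which rose, and NTN4 and EFNA1, which fell, so that the letters just upstream of genes with opposite responses can be set side by side. The sequences come from RefSeq on build GRCh38.p14 and run 5′ to 3′ on the strand of the gene over the 250 bases before its annotated start. Capitals mark the GC box GGGCGG on either strand, with overlapping matches all marked. The SLIT2 window lies at chr4:20251655-20251904 (plus strand), EFNB2 at chr13:106535663-106535912 (minus strand), NTN4 at chr12:95791156-95791405 (minus strand) and EFNA1 at chr1:155127626-155127875 (plus strand).
SLIT2: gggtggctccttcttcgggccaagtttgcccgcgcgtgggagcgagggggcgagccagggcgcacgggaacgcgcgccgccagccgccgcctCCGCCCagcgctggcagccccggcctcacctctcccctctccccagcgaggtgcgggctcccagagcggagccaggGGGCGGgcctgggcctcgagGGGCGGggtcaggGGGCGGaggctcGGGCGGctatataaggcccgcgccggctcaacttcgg
EFNB2: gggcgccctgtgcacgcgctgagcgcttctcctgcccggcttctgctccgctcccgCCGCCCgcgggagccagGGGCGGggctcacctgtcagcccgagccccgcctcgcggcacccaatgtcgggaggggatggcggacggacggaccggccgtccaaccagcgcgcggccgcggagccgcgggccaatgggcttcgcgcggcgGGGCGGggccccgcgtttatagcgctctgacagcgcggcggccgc
NTN4: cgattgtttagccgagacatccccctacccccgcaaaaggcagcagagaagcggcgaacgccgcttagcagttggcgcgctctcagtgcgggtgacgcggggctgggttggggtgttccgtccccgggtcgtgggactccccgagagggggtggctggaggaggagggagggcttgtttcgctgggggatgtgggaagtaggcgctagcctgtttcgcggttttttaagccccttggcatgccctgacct
EFNA1: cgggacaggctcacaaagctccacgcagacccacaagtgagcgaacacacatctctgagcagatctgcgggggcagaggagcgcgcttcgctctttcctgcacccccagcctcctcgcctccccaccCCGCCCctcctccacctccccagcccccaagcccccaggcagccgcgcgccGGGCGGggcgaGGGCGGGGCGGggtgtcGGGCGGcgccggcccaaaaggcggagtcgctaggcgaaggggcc
The SLIT2 and EFNA1 windows held 5 GC boxes each, the EFNB2 window 3 and the NTN4 window 0. A promoter entry was found for 44 of the 51 measured genes, and 32 of these windows (72.7%) held a GC box, beside 42.6% of the 35116 promoters in the table. That background counted every entry and was not limited to genes on the array, while each measured gene gave 1 entry. A GC box was in 3 of 3 windows of genes that rose, 3 of 5 that fell, 17 of 21 that did not pass and 9 of 15 near background. Median GC content was 58.0% over all promoters, and the windows shown had 64.4% (NTN4) to 78.4% (EFNB2). Over the 44 windows it ran from 36.4% (SEMA3C) to 88.8% (PLXND1). The part of base composition in these shares was not tested. The AP-1 motif TGANTCA was in 2 of the 44 windows (all promoters 6.57%), and the hypoxia core ACGTG was in 4 of the 44 (all promoters 18.5%). The cAMP response element TGACGTCA was in 2 (1.65%) and TATAAA in 1 (10.7%), all searched on both strands. Of the 8 called genes with an entry, SEMA3E held the hypoxia core, SEMA4C the cAMP response element and EFNB2 TATAAA. These matches describe letters in a fixed window and are not binding sites.

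Class 3 semaphorins moved in different directions. SEMA3A, a secreted ligand of NRP1 that collapses growth cones, gave signals of 606, 511 and 564 in control and 739, 789 and 793 in versican arrays. All versican arrays lay above all control arrays, and means were 560 ± 47.5 in control and 774 ± 30.0 after versican (SD, n = 3 per group), or 1.37-fold higher (log2 0.46 with SE 0.08, limma adjusted p = 0.0018). SEMA3E, a ligand that binds PLXND1 without a neuropilin, gave 297, 206 and 438 in control and 192, 187 and 164 in versican arrays. Its control arrays were widely spread, and the groups stood apart by the narrow gap between 192 and 206. Means were 314 ± 117 in control and 181 ± 14.7 after versican (SD, n = 3 per group), or 1.61-fold lower (log2 -0.69 with SE 0.22, limma adjusted p = 0.030). This call rests on few arrays and 1 probe set of the _x_at kind, which can read related transcripts. Without control replicate 3 the log2 fold change was -0.42 (adjusted p = 0.091), and it also missed the threshold without any one of control replicate 1 or versican replicates 1, 2 and 3 (0.062, 0.056, 0.059 and 0.088) and with no filter (0.064). SEMA3E entered the test through its control arrays, since its versican mean of 7.62 on the log2 scale lay below the filter.

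SEMA3C and SEMA3F, both neuropilin ligands, did not pass (log2 0.07 and -0.04, adjusted p = 0.47 and 0.65), with 95% intervals of -0.10 to 0.25 and -0.17 to 0.10. SEMA3C signals lay between 7000 and 8895 over the 6 arrays, and those of SEMA3F between 1926 and 2177. SEMA3B, often named as a tumour suppressor, had signals from 2.46 to 44.1 and was near background. SEMA3C passed only with probe sets averaged per gene, at 0.16 (adjusted p = 0.033), where SEMA3A moved to 0.70 (0.025).

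Among class 4 semaphorins, which are membrane-bound ligands of plexins, SEMA4C fell. SEMA4C, a ligand of PLXNB2, gave 2699, 2563 and 2160 in control and 1899, 1866 and 1973 in versican arrays. The lowest control array still exceeded the highest versican array. Means were 2474 ± 280 in control and 1913 ± 54.5 after versican (SD, n = 3 per group), or 1.28-fold lower (log2 -0.36 with SE 0.08, limma adjusted p = 0.0043), and its second probe set fell by 0.35. SEMA4D, the ligand of PLXNB1, gave 442, 401 and 431 in control and 466, 505 and 566 in versican arrays. The groups did not overlap, but the difference of 0.26 on the log2 scale missed the threshold (SE 0.10, limma adjusted p = 0.057). It passed after quantile normalization, cyclic loess, without the intensity trend and without versican replicate 1 (0.036, 0.040, 0.039 and 0.045). SEMA4D did not pass in the other settings in which it was tested, and averaged probe sets gave -0.06 (adjusted p = 0.65). A dimmer SEMA4D probe set had the opposite sign and did not pass, with 178, 147 and 145 in control and 115, 120 and 112 in versican arrays (log2 -0.39, adjusted p = 0.073 in the probe-set fit). The fold changes of these 2 SEMA4D probe sets differed by 0.65 on the log2 scale (two-sided exact permutation p = 0.10, as low as 3 against 3 arrays can give), a pair chosen after its values were seen.

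SEMA4B and SEMA4F did not pass (log2 0.01 and -0.09, adjusted p = 0.90 and 0.51). SEMA4F had a further _x_at probe set that rose by 0.27 (adjusted p = 0.033 in the probe-set fit), and its difference from the brightest one was 0.36 (two-sided exact permutation p = 0.20), again chosen after the values were seen. SEMA7A, a lipid-anchored semaphorin that binds PLXNC1 and integrins, differed by 0.22 on the log2 scale and did not pass (SE 0.09, limma adjusted p = 0.085), with overlapping groups of 678 to 799 and 767 to 934. It passed with array weights (0.27, adjusted p = 0.027), without control replicate 1 (0.28, 0.049) and without versican replicate 2 (0.30, 0.032). SEMA7A did not pass in the other settings in which it was tested, with an adjusted p of up to 0.44, with averaged probe sets.

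SEMA4A, SEMA4G, SEMA5A, SEMA6A, SEMA6B, SEMA6C and SEMA6D were near background. SEMA5A, a semaphorin with thrombospondin repeats, gave 272, 255 and 253 in control and 188, 127 and 103 in versican arrays. SEMA4G gave 151, 128 and 143 in control and 77.7, 87.9 and 84.6 in versican arrays. In both genes every versican array lay below every control array, with mean differences of -0.87 and -0.65 on the log2 scale. In the probe-set fit, where 33.2% of 20545 probe sets were called, SEMA5A fell with adjusted p = 0.0049 and SEMA4G with 0.0098. SEMA4G entered that fit through its control arrays, since its versican mean of 6.63 on the log2 scale lay below the filter there, at 6.83. With no filter on genes its adjusted p was 0.035. A second SEMA5A probe set also fell (log2 -0.70, adjusted p = 0.0047). Class 6 semaphorins, ligands of class A plexins, had signals between 5.27 and 157 with overlapping groups for all 4.

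Of 8 tested semaphorin receptors 1 rose and 1 fell, beside 41.6% of all tested genes called in either direction. NRP1, the co-receptor that SEMA3A and VEGFA share, gave 419, 440 and 465 in control and 849, 868 and 980 in versican arrays. The lowest versican array was well above the highest control array. Means were 441 ± 23.3 in control and 899 ± 70.5 after versican (SD, n = 3 per group), or 1.999-fold higher (log2 0.999 with SE 0.09, limma adjusted p = 1.1e-05). A dimmer NRP1 probe set did not follow, with 281, 245 and 292 in control and 255, 233 and 275 in versican arrays (log2 -0.09, adjusted p = 0.60 in the probe-set fit). The fold changes of the 2 NRP1 probe sets differed by 1.09 on the log2 scale (two-sided exact permutation p = 0.10, as low as 3 against 3 arrays can give), chosen after their values were seen. Averaged over its 4 probe sets, 2 of them near background, NRP1 had a log2 fold change of 0.27 and did not pass (adjusted p = 0.19). Which transcript forms each probe set reads was not tested.

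PLXNB2, the plexin that binds SEMA4C, gave 7457, 7784 and 7420 in control and 4756, 4377 and 4969 in versican arrays. No control array came near a versican array. Means were 7554 ± 200 in control and 4701 ± 300 after versican (SD, n = 3 per group), or 1.61-fold lower (log2 -0.68 with SE 0.06, limma adjusted p = 8.8e-06). Its only other probe set was near background, and averaging both gave -0.32 (adjusted p = 0.020). SEMA4C and PLXNB2, a ligand and its receptor, both fell, while NRP1 and its ligand SEMA3A both rose on their brightest probe sets. These pairs were picked after their values were seen, and in others only the ligand was called. EFNB2 and SLIT2 rose while the receptors EPHB4 and ROBO1 did not pass (log2 -0.05 and -0.09). Of other EphB genes, EPHB3 did not pass (log2 0.12), while EPHB6 and EPHB1, both near background, were higher (1.26 and 0.96). EFNA1 and SEMA3E fell while EPHA2 and PLXND1, each lower by 0.17 on the log2 scale, did not pass (limma adjusted p = 0.052 and 0.085). VEGFA, another ligand of NRP1, fell by 0.44 on the log2 scale.

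The other plexins and NRP2 did not pass. PLXNA3 gave 357, 367 and 342 in control and 300, 279 and 300 in versican arrays, a log2 fold change of -0.27 that missed the threshold with groups apart (SE 0.10, adjusted p = 0.051). It passed only without the intensity trend (adjusted p = 0.010), and after median centring the adjusted p was 0.18. PLXND1, the SEMA3E receptor, had 982, 977 and 1002 against 869, 944 and 825, again apart and not passed (log2 -0.17, adjusted p = 0.085). It passed only with array weights (0.046) and without versican replicate 2 (0.041), and after median centring the adjusted p was 0.34. PLXNA1, PLXNA2, PLXNB1 and NRP2 had log2 fold changes of -0.03, 0.17, -0.02 and -0.11 with overlapping groups (adjusted p = 0.83, 0.27, 0.91 and 0.47). All 5 tested probe sets of NRP2, which also binds VEGFC, had fold changes between -0.11 and 0.11. PLXNC1, the receptor of SEMA7A, was near background, at 160, 125 and 142 in control and 70.8, 129 and 41.9 in versican arrays.

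Of 5 tested Eph receptors 0 rose and 0 fell in limma at adjusted p under 0.05, beside 41.6% of all tested genes called in either direction. EPHA2, the Eph receptor best known from carcinoma and a receptor of EFNA1, gave 5292, 5933 and 6120 in control and 5128, 5367 and 4855 in versican arrays. The groups overlapped through control replicate 1 and versican replicate 2, and the difference of -0.17 on the log2 scale missed the threshold (SE 0.06, adjusted p = 0.052). It passed at -0.17 among the upper 25% of genes (0.046), after quantile normalization (-0.18, 0.027), after cyclic loess (-0.20, 0.018), with array weights (-0.21, 0.015), without control replicate 1 (-0.24, 0.0098) and without versican replicate 2 (-0.21, 0.044). EPHA2 did not pass in the other settings, with an adjusted p of up to 0.33, after median centring. EPHB4, the receptor of EFNB2, had a log2 fold change of -0.05 (95% interval -0.28 to 0.18, adjusted p = 0.75). EPHA1, EPHA4 and EPHB3 had 0.13, 0.05 and 0.12 (adjusted p = 0.44, 0.70 and 0.40). EPHA7 was near background, with signals from 1.53 to 25.2.

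EPHB6, an Eph receptor whose kinase domain is inactive, differed more than any guidance gene above the filter. Its signal was 118, 112 and 126 in control and 274, 336 and 310 in versican arrays. The groups were far apart, with means of 119 ± 6.9 in control and 307 ± 30.8 after versican (SD, n = 3 per group), 2.39-fold higher (log2 1.26). Its mean level lay just below the filter, with 7.07 in control and 8.33 in versican arrays on the log2 scale. It rose in the probe-set fit (adjusted p = 5.2e-05) and when no filter was used (0.00021), and 1 probe set was all there was for this gene. EPHB1, a family gene outside the 52, was near background too and gave 168, 91.1 and 122 in control and 247, 240 and 281 in versican arrays (log2 0.96, adjusted p = 0.0033 in the probe-set fit), named after its values were seen.

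Ephrin ligands moved both ways: of 5 tested, 2 rose and 1 fell, beside 41.6% of all tested genes called in either direction. EFNA1, a GPI-anchored ligand of EPHA2 that inflammatory cytokines are known to induce, gave 2903, 4334 and 4238 in control and 2047, 2187 and 2262 in versican arrays. Control replicate 1 was the lowest control array and still lay above all versican arrays. Means were 3825 ± 800 in control and 2166 ± 109 after versican (SD, n = 3 per group), or 1.73-fold lower (log2 -0.79 with SE 0.13, limma adjusted p = 0.00082). EFNB2, a transmembrane ephrin and ligand of EPHB4, gave 3857, 4393 and 4096 in control and 5660, 5759 and 5526 in versican arrays. All of its versican arrays were higher than all control arrays. Means were 4115 ± 268 in control and 5649 ± 117 after versican (SD, n = 3 per group), or 1.37-fold higher (log2 0.46 with SE 0.06, limma adjusted p = 0.00012), and the second EFNB2 probe set rose by 0.42.

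EFNA5, another GPI-anchored ephrin, gave 1441, 1429 and 1459 in control and 1766, 1741 and 1792 in versican arrays. Both groups were narrow and apart, and the 1.22-fold rise (log2 0.29 with SE 0.05, limma adjusted p = 0.0014) was the smallest change called among the guidance genes. Its further tested probe sets rose by 0.28 and 0.51, and the average that includes the remaining one, near background, gave 0.21 (adjusted p = 0.13). EFNA4 and EFNB3 did not pass (log2 -0.04 and 0.05, adjusted p = 0.81 and 0.63), and EFNA3 and EFNB1 were near background, with signals from 42.4 to 199 and from 3.89 to 76.6. EFNA2, a family gene outside the 52, fell by 0.35 (adjusted p = 0.032 in limma) and was the only one of 27 such genes above the filter.

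SLIT2, a large secreted ligand of Robo receptors, gave 965, 1106 and 1102 in control and 1965, 1808 and 1804 in versican arrays. Every versican array lay far above the control arrays. Means were 1057 ± 80.3 in control and 1859 ± 91.7 after versican (SD, n = 3 per group), or 1.75-fold higher (log2 0.81 with SE 0.07, limma adjusted p = 1.3e-05). Both of its further probe sets rose as well (log2 0.67 and 0.62, adjusted p = 0.00059 and 0.0017 in the probe-set fit). SLIT3 was near background and went the other way, with 236, 270 and 250 in control and 153, 132 and 189 in versican arrays (log2 -0.63, adjusted p = 0.0083 in the same fit).

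The Slit receptor ROBO1 gave 992, 956 and 1002 in control and 890, 930 and 953 in versican arrays. These groups were just apart, and the log2 fold change of -0.09 did not pass (95% interval -0.23 to 0.05, adjusted p = 0.30). ROBO2 and ROBO3 were near background, with signals from 1.07 to 22.9 and from 121 to 207 and overlapping groups.

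NTN4, a netrin that binds laminin and sits in basement membranes, fell more than any other guidance gene that was tested. Its signal was 3078, 2841 and 2759 in control and 1292, 1435 and 1409 in versican arrays. The lowest control array was well above the highest versican array, and means were 2893 ± 166 in control and 1379 ± 76.3 after versican (SD, n = 3 per group). The fall was 2.09-fold (log2 -1.06 with SE 0.06, limma adjusted p = 1.2e-06), and NTN4 was the only tested guidance gene called at 2-fold or more, beside 2.13% of all tested genes. NTN1, the founding secreted netrin, gave 308, 298 and 272 in control and 224, 230 and 232 in versican arrays. Its groups were apart, but the 1.26-fold fall was close to the threshold (log2 -0.33 with SE 0.11, limma adjusted p = 0.031). The call was lost with no filter (0.079), after median centring (0.096) and without any one array other than control replicate 3 (0.063 to 0.083). With probe sets averaged, NTN1 lay below the filter and was not tested.

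RGMB and its receptor NEO1, neogenin, did not pass (log2 0.03 and -0.03, adjusted p = 0.82 each). The netrin receptors DCC and UNC5B were near background, with signals from 3.92 to 49.1 and from 87.1 to 149. A dimmer UNC5B probe set fell by 0.58 in the probe-set fit (adjusted p = 0.040), while the brightest did not pass there (-0.27, adjusted p = 0.32). That probe set entered the fit through its control arrays, with log2 means of 7.13 in control and 6.55 in versican arrays. NTNG1, a membrane-anchored netrin relative outside the 52, was near background at 46.5, 63.3 and 53.3 in control and 202, 154 and 131 in versican arrays, named after its values were seen (log2 1.33, adjusted p = 0.0025 with no filter).

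**Figure D2:**
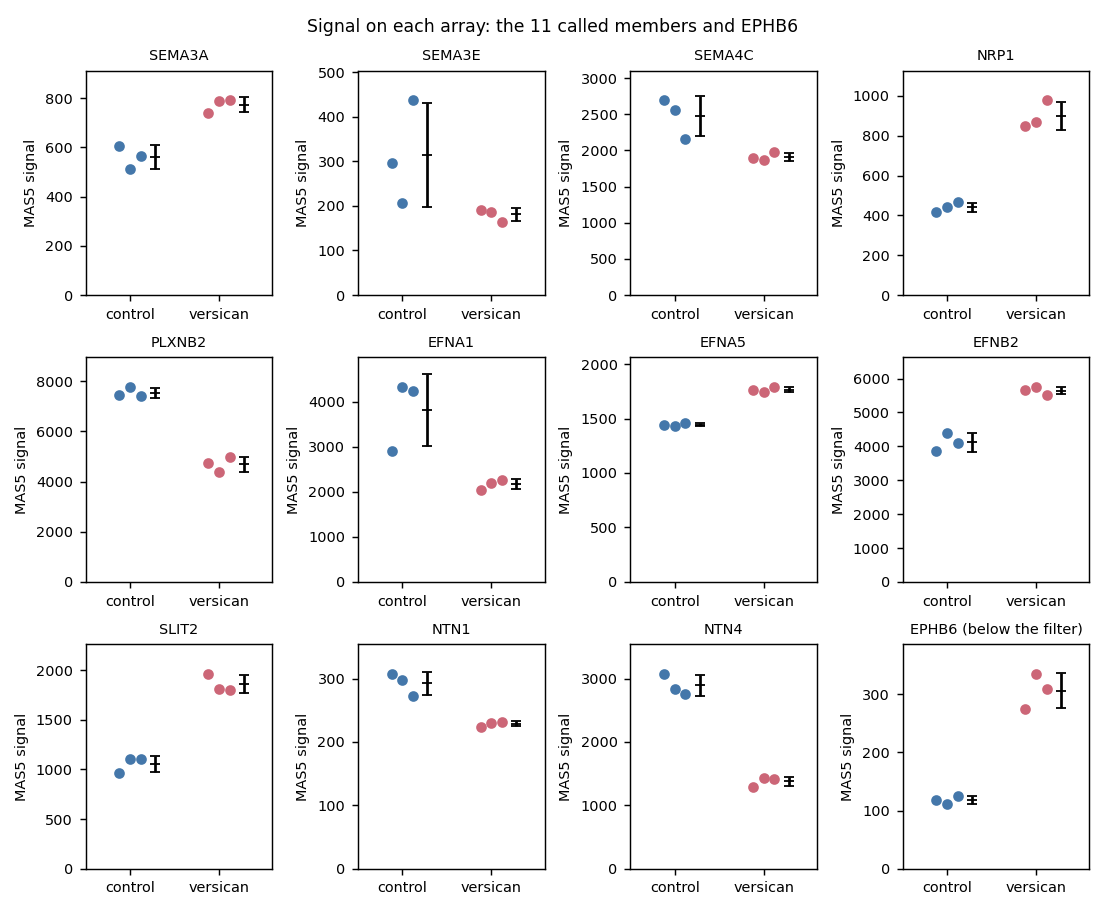
MAS5 signal (linear y axis from 0) on each of the 3 control and 3 versican arrays for the 11 called guidance genes and EPHB6, with bars at the mean ± SD of each group. In all 12 panels the groups do not overlap, beside 52.2% of all tested genes. The panels were chosen by their calls, and EPHB6 after its values were seen. The control arrays of SEMA3E and EFNA1 are the most widely spread, at 206 to 438 and 2903 to 4334.

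The 51 genes had 134 probe sets, and 38 genes had over 1. Of the 70 probe sets bright enough for the probe-set fit, 12 rose and 12 fell, beside 33.2% of all 20545 probe sets called in that fit. No gene had probe sets called in opposite directions. Of 6 genes whose brightest probe set was called there and that had a further tested one, 5 had one called the same way, SEMA4C, EFNA5, EFNB2, SLIT2 and SEMA5A, and the exception was NRP1. Of the 18 genes near background, 9 were bright enough for that fit and 4 were called there, namely EPHB6, SEMA5A, SLIT3 and, with a versican mean below the filter, SEMA4G. The remaining 14 had overlapping groups.

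**Figure D3:**
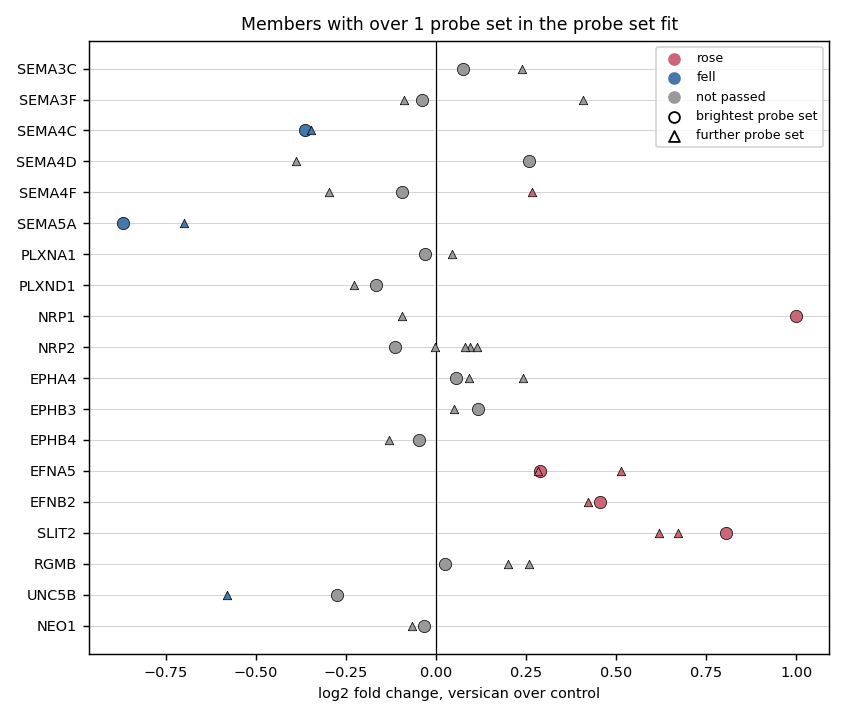
Log2 fold change (versican over control, x axis) of every tested probe set for the 19 guidance genes with over 1, large circles for the brightest and triangles for further ones, coloured by the call in the probe-set fit. Probe sets of SLIT2, EFNB2, EFNA5, SEMA4C and SEMA5A lie together, while those of NRP1 (0.999 and -0.09) and SEMA4D (0.26 and -0.39) lie apart.

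Downstream, 69 genes that act with these receptors were listed, 63 had a probe set and 53 were tested. Of these 5 rose and 12 fell, 32.1% in all beside the same background of 41.6%, with a median log2 fold change of -0.01. GPC1, a heparan sulfate proteoglycan that binds Slit, fell most, from 1912 ± 63.2 to 1071 ± 80.3 (SD, n = 3 each; log2 -0.83, adjusted p = 8.5e-06 in limma). DAPK1, a death-associated kinase that acts below UNC5B, fell from 3599 ± 174 to 2022 ± 30.1 (SD, n = 3 each; log2 -0.83, adjusted p = 1.7e-06 in limma). The small GTPase RRAS, a substrate of the plexin GAP domain, fell by 0.65, and INPPL1, the lipid phosphatase SHIP2 that binds EPHA2, fell by 0.55 (adjusted p = 3.7e-05 and 0.00031).

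Receptor tyrosine kinases that associate with class B plexins also fell, MET by 0.35 and ERBB2 by 0.44 on the log2 scale (adjusted p = 0.00044 and 0.0035). The ERBB2 call was lost when its probe sets were averaged (-0.19, adjusted p = 0.38). VEGFA, a ligand of NRP1, fell by 0.44 (adjusted p = 0.0010), while VEGFC, a ligand of NRP2, rose by 0.31 (adjusted p = 0.0028). TIAM1, a Rac exchange factor that binds ephrin-B and EPHA2, rose by 0.45 (adjusted p = 0.0021). MICAL2, an actin-oxidising enzyme of the family that acts below plexins, rose by 0.32 (adjusted p = 0.00060), and DPYSL3, a collapsin response mediator protein, by 0.40 (adjusted p = 0.023). DPYSL3 missed the threshold without control replicate 3 (0.29, adjusted p = 0.078), without versican replicate 1 (0.31, 0.093) and with averaged probe sets (0.27, 0.16).

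By pathway, beside 41.6% of all tested genes, 4 of 19 tested plexin partners rose and 6 fell, and of 16 Eph and ephrin partners 1 rose and 2 fell. Of 7 Slit and Robo partners 0 rose and 1 fell, GPC1, and of 14 netrin and repulsive guidance partners 0 rose and 4 fell, DAPK1, BMPR2, NCK1 and PTK2. The lists share NCK1, ARHGEF12 and ENAH, and NCK1 is counted in both the Eph and the netrin list. In a dish of cells, a lower signal from fewer cells that express a gene and from less RNA per cell cannot be told apart.

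**Figure D4:**
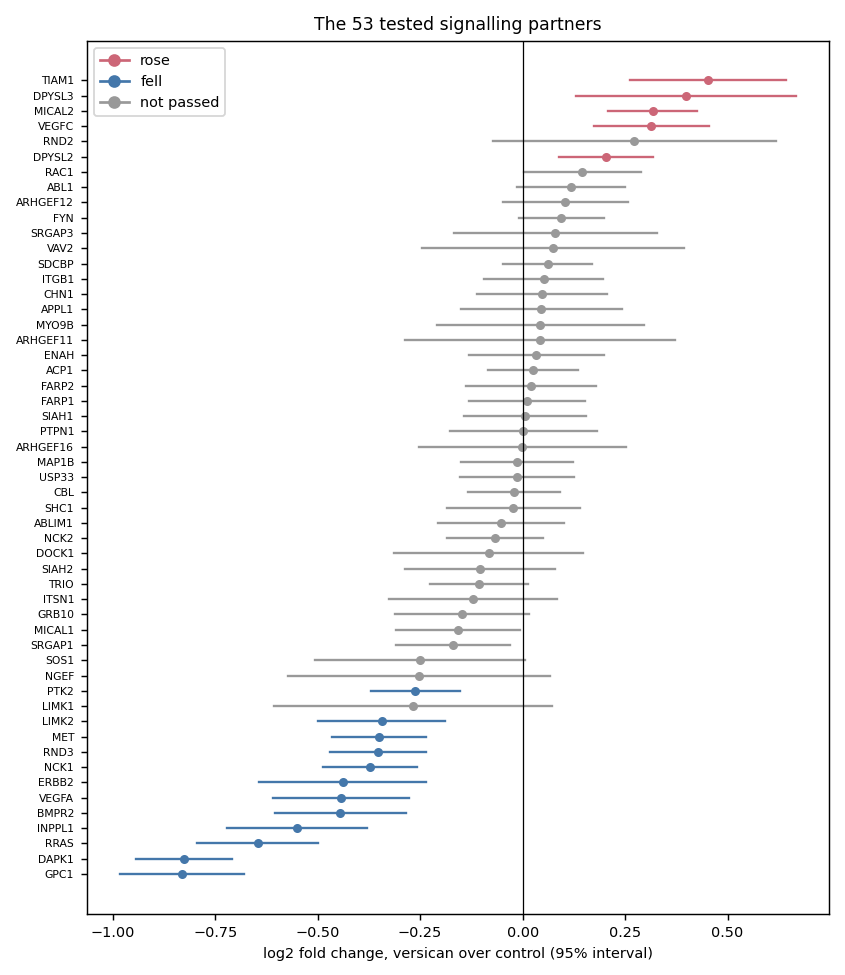
Log2 fold change (versican over control, x axis) of the 53 tested signalling partners in order of size, with 95% intervals of the limma fit. The 5 red genes rose by 0.20 to 0.45, the 12 blue genes fell, from PTK2 at -0.26 to GPC1 and DAPK1 at -0.83, and the 36 grey genes did not pass.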

How the data were processed

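Transcripts of OVCA433 cells were measured on 3 control and 3 versican arrays. The authors deposited intensity values, probe set signals from MAS5 as the submitters' processing notes name it. Its version, settings and detection calls are not given in the sources used here. Each array had a 2% trimmed mean of 500.1, so arrays had been scaled to a common level, and no further normalization was applied. Of 54675 probe sets, GEO's platform annotation paired 41091 with 1 gene symbol and 1801 with several, and left 11721 unnamed, and 41037 symbols were brought up to date by gene identifier. The test used log2(signal + 16) in limma 3.58.1 under R 4.3.3 (lmFit, eBayes with an intensity trend, two-sided, group as the only term), adjusted over the 9887 genes in the upper 50% by mean. All adjusted p-values come from limma. A second limma fit took each probe set as its own unit.

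Members and lists were chosen with earlier results of these data known. The naming rule gave values of each array for called genes with a change of at least 0.5 on the log2 scale or the largest of their role, fold changes for other members, and of the partners the 4 largest changes each way with MET, ERBB2 and VEGFA. Further array values and genes were added after they were seen. On simulated data of 9887 genes, simulated log2 changes of 1, 0.5 and 0.25 were called for 93.9%, 73.1% and 28.4% of genes. In that simulation 9687 genes had no change, whereas 41.6% of tested genes were called in the data. The adjusted threshold was therefore stricter there, and these rates do not carry over directly. The same replicate number on a control and a versican array gave correlations of deviations of 0.119, -0.019 and -0.090, so numbers were not taken to pair samples. The number of arrays limits the precision, and no batch or scan date was given in the sources used here.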

Additional observations from a re-analysis of the deposited data

How the results depend on the processing

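The fit was repeated with pseudocounts of 1 and 64, with the upper 25% of genes or no filter, after cyclic loess, quantile or median scaling, with a robust trend or none, with array weights, averaged probe sets, no _x_at and _s_at probe sets, a replicate block and each array left out. The counts of guidance genes that rose and fell (5 and 6) and of partners (5 and 12) stayed within 1.5 times under all of these, except among the upper 25% of genes, where 3 guidance genes and 2 partners rose, since dimmer genes such as NRP1 and SEMA3A were not tested there. With each array left out in turn, 5 to 7 guidance genes rose and 5 to 8 fell, and 4 to 6 partners rose and 12 to 13 fell. The genes behind these counts changed. Without versican replicate 2, 4 of the 8 that fell were calls of the main fit. Among the settings with 1 array left out, some genes passed the filter only when that array was of their lower group. These were EPHB6 without any one control array, SLIT3 without any one versican array, and SEMA5A without versican replicate 2 or 3. With all arrays kept, EPHB6 also rose and SEMA5A also fell with averaged probe sets. The same 2 calls, and a fall of SEMA4G, were gained without _x_at and _s_at probe sets. Without _x_at and _s_at probe sets, the calls of PLXNB2, SEMA3E, GPC1, VEGFA, ERBB2, INPPL1 and DPYSL3 were lost. SEMA3E and INPPL1 had no other probe set and PLXNB2 none above background, so these were not tested again. That setting tested 31 guidance genes in place of 33, and 40 partners in place of 53. The replicate block left 5 that rose and 5 that fell, losing NTN1 alone (adjusted p = 0.054), and changed no call of a partner (5 and 12). Over 44 genes and all alternatives, 731 of 792 values kept their direction and side of the threshold, 17 gained a call, 20 lost one and 24 changed sign. No called gene changed sign. The values that changed sign had not passed, and lay between -0.11 and 0.13 apart from SEMA4D at 0.26. With averaged probe sets SEMA3F gave 0.09, SEMA4D -0.06, NRP2 0.05, EPHA1 -0.08, EFNB3 -0.11 and NEO1 0.05. PLXNA1 gave 0.04 without _x_at and _s_at probe sets, and EFNA4 gave 0.03 with array weights. With single arrays left out, log2 fold changes ran from -0.05 to 0.06 for SEMA4B, -0.14 to 0.06 for PLXNA1, -0.13 to 0.07 for PLXNB1, -0.21 to 0.06 for NRP2, -0.15 to 0.05 for EPHB4, -0.17 to 0.04 for EFNA4, -0.02 to 0.05 for RGMB and -0.09 to 0.01 for NEO1. Array signal over background limits what can be said of the 18 guidance genes below the filter.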
